A study of Mus musculus with 8 samples.

Results

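MHC class II presentation genes were followed in ATMs, macrophages isolated from epididymal adipose tissue with magnetic beads against F4/80. The list held 9 genes, chosen by exact gene symbol, and 8 of them were measured by a probe set that carried their symbol alone, out of 18820 genes in all. The 8 were H2-Aa, H2-Ab1, H2-Eb1, Cd74, Ciita, H2-DMa, H2-Oa and H2-Ob, each with 1 such probe set. H2-DMb1 was measured only by a probe set shared with its near-identical neighbour H2-DMb2, so no level is given for it. ATMs from obese mice, fed an HFD, were compared with ATMs from lean mice, fed an LFD, on 8 arrays from 4 separate experiments, each with 1 HFD pool and 1 LFD pool. All animals were male wild-type C57Bl/6 mice, and each array held RNA of pooled animals, so that the spread between single mice was not measured. Fat from lard supplied 45% of the energy of the HFD in 2 of the experiments (1 and 3) and 60% in the others (2 and 4), and the LFD supplied 10% as fat. By the sample labels the diets lasted 16, 15, 16 and 10 weeks in experiments 1, 2, 3 and 4. The age of the mice was not given in the sources used here. The C57Bl/6 strain does not make the I-E molecule, because its gene for the alpha chain is not functional.

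MHC class II molecules are pairs of an alpha and a beta chain that show peptides from endocytosed protein to CD4+ T cells. H2-Aa and H2-Ab1 encode the alpha and beta chain of I-A, and H2-Eb1 the beta chain of I-E. Cd74 encodes the invariant chain, which fills the peptide groove until proteases of the endolysosome trim it. H2-DM (H2-DMa with H2-DMb1) then exchanges the remaining fragment for peptide, and H2-DO (H2-Oa with H2-Ob), known mainly from B cells, restrains H2-DM. Ciita encodes the coactivator that class II transcription depends on. In adipose tissue, macrophages, dendritic cells and B cells all carry class II molecules.

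CIITA acts through a compound element upstream of class II genes, in which RFX factors bind the X box and NF-Y binds the Y box, an inverted CCAAT sequence. Upstream sequence is shown to let the shared element be seen in some members whose levels are compared further on, and in H2-DMb1, which has no level. The RefSeq table (GRCm38.p6), which gives 250 bases before and 50 bases after each transcript start, held promoters of 6 of the 9 members (H2-Aa, H2-Eb1, H2-DMa, H2-DMb1, H2-Oa and H2-Ob) and not of H2-Ab1, Cd74 and Ciita. Bases -110 to -21 are given 5′ to 3′ on the strand of the gene, and capitals mark GNAAC, letters found in X boxes, followed by GATTGG, the core of the Y box.
H2-Aa: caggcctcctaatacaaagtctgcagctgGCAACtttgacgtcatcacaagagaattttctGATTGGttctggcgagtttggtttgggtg
H2-Eb1: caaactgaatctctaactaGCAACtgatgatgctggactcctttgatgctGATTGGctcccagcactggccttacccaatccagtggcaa
H2-DMb1: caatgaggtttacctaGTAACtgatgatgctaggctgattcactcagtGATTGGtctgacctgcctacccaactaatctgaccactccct
H2-Oa: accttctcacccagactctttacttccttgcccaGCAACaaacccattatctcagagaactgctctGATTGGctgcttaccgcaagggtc
H2-Ob: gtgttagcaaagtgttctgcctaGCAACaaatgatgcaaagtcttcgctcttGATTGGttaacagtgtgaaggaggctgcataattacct
The stretches lie on chromosome 17 in the class II region, H2-Aa at chr17:34287844-34287933 on the minus strand and the others on the plus strand, H2-Eb1 at chr17:34305757-34305846, H2-DMb1 at chr17:34153081-34153170, H2-Oa at chr17:34092269-34092358 and H2-Ob at chr17:34238795-34238884. The start of GATTGG followed that of GNAAC by 32 bases in H2-Aa, H2-DMb1 and H2-Oa, by 31 in H2-Eb1 and by 29 in H2-Ob. Motifs were searched on both strands and did not overlap. GATTGG alone was found in 16.1% of 32851 promoters and GNAAC alone in 84.8%, whereas GNAAC followed by GATTGG at 29 to 32 bases, a spacing set after these sequences were seen, was found in 0.234% (77 promoters). Neither of both H2-DMa promoters held the pair. A match of letters is a description and not a measured binding site.

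**Figure D1:**
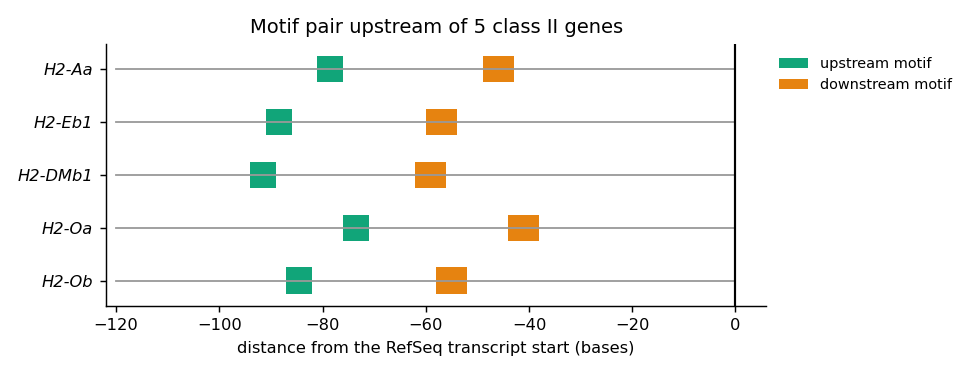
Map of the motif pair in the upstream sequence of 5 class II genes, with the distance from the RefSeq transcript start in bases on the x axis and 1 row per gene. The upstream motif starts between -94 and -76 and the downstream motif between -62 and -44 in all 5 rows.

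To examine whether class II presentation genes differed with obesity, levels were compared between HFD and LFD pools. RNA of I-A, I-E beta and the invariant chain was not shown to differ between ATMs from obese and lean mice. Most of its variation lay between experiments. H2-Ab1 had log2 levels of 10.31, 11.89, 11.79 and 11.57 in the HFD pools of experiments 1, 2, 3 and 4, against 10.03, 12.13, 12.36 and 11.55 in the LFD pools. Both pools of experiment 1 were the lowest, the LFD pool of experiment 3 was the highest, and the diets overlapped. The mean was 11.39 ± 0.73 in HFD pools and 11.52 ± 1.05 in LFD pools (SD, n = 4 each), a log2 difference of -0.13 (SE 0.57, 95% CI -1.44 to 1.19). In limma the difference did not pass (adjusted p = 0.999 over all genes), nor did it with experiment as a block (95% CI -0.51 to 0.25, adjusted p = 0.817). In bulk samples such as these, fewer cells of a type and less RNA per cell cannot be told apart.

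H2-Aa, the alpha chain that pairs with H2-Ab1, followed it closely. Its log2 levels were 10.21, 11.79, 11.92 and 11.60 in HFD pools of experiments 1, 2, 3 and 4, against 10.14, 11.94, 12.24 and 11.60 in LFD pools, with the same low experiment 1 and the same highest pool. The difference was -0.10 (SE 0.54, 95% CI -1.36 to 1.16), and with experiment as a block its interval ran from -0.34 to 0.14. H2-Eb1, the I-E beta chain, had log2 levels of 9.68, 11.33, 11.42 and 10.96 in HFD pools, against 9.31, 11.51, 11.99 and 10.996 in LFD pools. It again overlapped between the diets, with a difference of -0.11 (SE 0.63, and 95% CI -0.51 to 0.30 with experiment as a block). Its partner H2-Ea, a transcribed pseudogene in the RefSeq table of C57BL/6J, lay between 2.83 and 2.84 in HFD pools and between 2.65 and 2.83 in LFD pools, below a log2 of 4.32 (20 linear units, the dim limit) on every array. Cd74, the invariant chain, had log2 levels of 11.18, 12.06, 11.99 and 11.93 in HFD pools, against 10.81, 12.31, 12.43 and 11.87 in LFD pools. Its difference was -0.066 (SE 0.38, and 95% CI -0.44 to 0.30 with experiment as a block). The HFD pool of experiment 1 stood below the other HFD pools for Cd74, as it did for H2-Aa, H2-Ab1 and H2-Eb1.

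**Figure D2:**
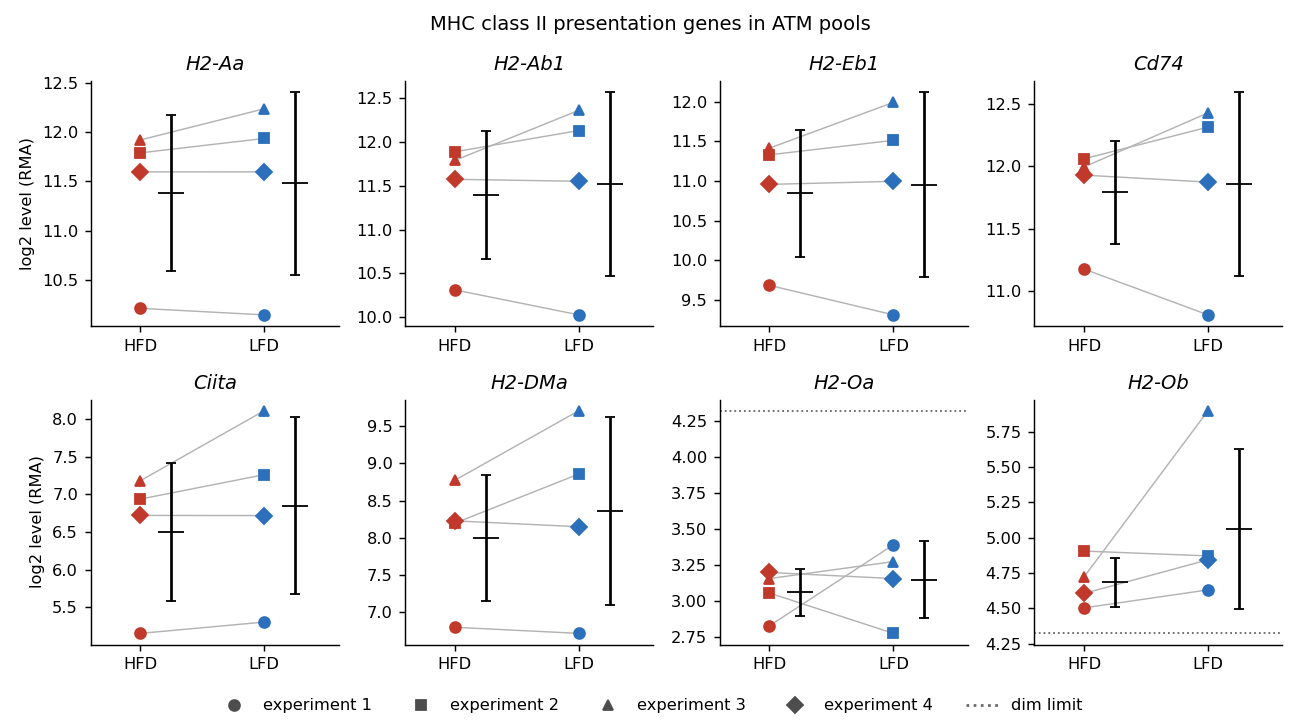
Log2 levels (y axis, RMA values, scaled separately in each panel) of the 8 measured class II presentation genes in HFD pools (red, left) and LFD pools (blue, right), with the experiment given by the symbol, grey lines joining pools of an experiment, a dotted line at the dim limit, and black bars for mean ± SD (n = 4). Both pools of experiment 1 are the lowest for H2-Aa, H2-Ab1, H2-Eb1, Cd74, Ciita and H2-DMa, and the LFD pool of experiment 3 is the highest for every gene but H2-Oa.

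Ciita, the coactivator, lay lower in the HFD pool in 3 of 4 experiments. Its log2 levels were 5.15, 6.94, 7.18 and 6.72 in HFD pools of experiments 1, 2, 3 and 4, against 5.30, 7.26, 8.11 and 6.72 in LFD pools. The pools of experiment 4 were equal to within 0.0018, and those of experiment 3 differed by -0.93. The mean was 6.50 ± 0.92 in HFD pools and 6.85 ± 1.18 in LFD pools (SD, n = 4 each), a difference of -0.35 (SE 0.66). In limma it did not pass without the block (adjusted p = 0.999) or with it (95% CI -0.77 to 0.06, adjusted p = 0.493), where Ciita had the smallest p of the members (unadjusted p = 0.0831).

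Of the peptide exchange genes, H2-DMa had log2 levels of 6.80, 8.20, 8.77 and 8.23 in HFD pools of experiments 1, 2, 3 and 4, against 6.72, 8.86, 9.71 and 8.15 in LFD pools. HFD pools lay below LFD pools in experiments 2 and 3 and marginally above them in experiments 1 and 4. The difference was -0.36 (SE 0.67). H2-Ob, the beta chain of H2-DO, lay close above the dim limit, with log2 levels of 4.50, 4.91, 4.72 and 4.60 in HFD pools, against 4.63, 4.87, 5.90 and 4.84 in LFD pools. Its difference of -0.38 (SE 0.27) rested mainly on the LFD pool of experiment 3, without which it was -0.10. H2-Oa, the alpha chain of H2-DO, lay under the dim limit on all 8 arrays, between 2.83 and 3.20 in HFD pools and between 2.77 and 3.39 in LFD pools, where signal cannot be told from background.

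None of the 8 members passed an adjusted p under 0.05 in limma in either direction, and 0 of 18820 genes did (0%), with or without experiment as a block. At an unadjusted p under 0.05, 0 members were higher and 0 lower, against 3.3% of all genes higher and 1.51% lower. The block gave 0 members in either direction, against 7.95% of all genes higher and 4.16% lower. The methods' t-test called 0 members at its threshold, against 4.3% of all genes. No member lay lower or higher in all 4 experiments on the deposited scale (H2-Ob lay lower in all 4 once arrays were centred on their medians, and H2-Ob and Ciita after a repeat of quantile normalisation), whereas 7.43% of all genes were lower and 11% higher in all 4. The HFD mean was the lower in all 8 members and in 48.6% of all genes, and the median log2 difference was -0.12 over the members and 0.0049 over all genes. The sign of the median over the members changed with the arrays kept, in fits without the block. Leaving out the HFD pool of experiment 1 turned it to 0.12, and leaving out the LFD pool of experiment 1 gave -0.58. Each of these fits kept the other pool of experiment 1 without its pair. H2-Ob and the dim H2-Oa stayed lower in HFD pools whichever single array was left out.

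Within experiments the members did not behave alike from one experiment to the next. In experiment 3 (45% of energy from fat, 16 weeks) all 8 members were lower in the HFD pool, with a median of -0.58 and a range from -1.18 (H2-Ob) to -0.12 (H2-Oa), while 51.8% of all genes were lower there. In experiment 2 (60%, 15 weeks) 6 members were lower, with a median of -0.21. In experiment 1 (45%, 16 weeks) 5 members were higher, with a median of 0.074, led by H2-Eb1 (0.37) and Cd74 (0.37). In experiment 4 (60%, 10 weeks) the median was 0.012, and the differences of H2-Aa, H2-Ab1, H2-Eb1 and Cd74 lay between -0.038 and 0.056. Experiments 1 and 3 used the same fat content and the same number of weeks, and H2-Aa, H2-Ab1, H2-Eb1, H2-DMa and Cd74 took opposite signs in them. The diet effect was not shown to differ between the fat contents for any member (limma, interaction with experiment as a block, 0 of 8 members and 0% of all genes at an adjusted p under 0.05, 0 members at an unadjusted p under 0.05, against 3.95% of all genes). The effect at 60% minus that at 45% was 0.55 (SE 0.39) for H2-Ob, 0.50 (SE 0.23) for H2-Oa and 0.38 (SE 0.32) for Ciita, and it lay between -0.065 (Cd74) and 0.14 (H2-DMa) for the other 5 members. Weeks of diet differed together with fat content in part, so that their contributions cannot be told apart in full.

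**Figure D3:**
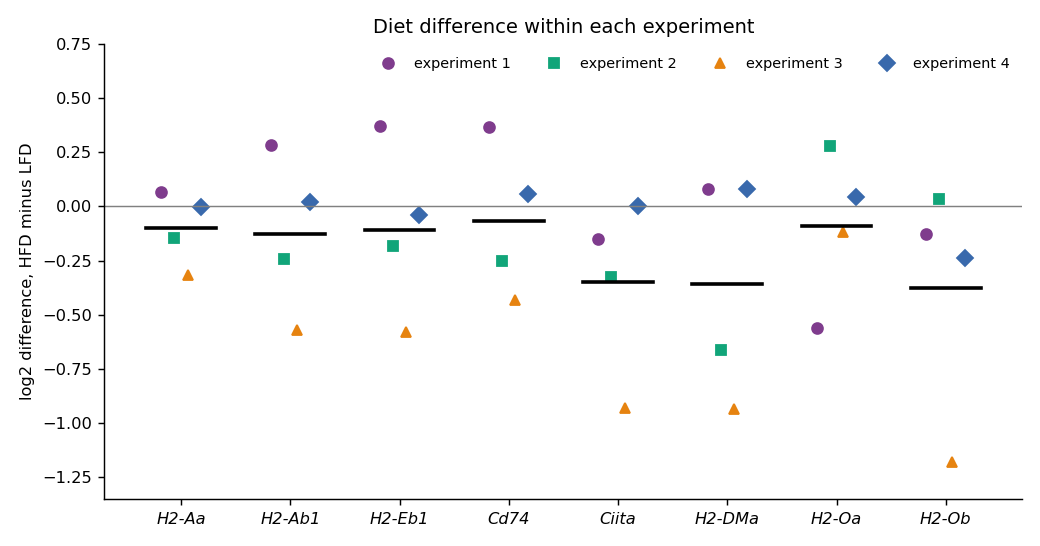
Log2 difference between the HFD and LFD pool of each experiment (y axis, HFD minus LFD) for the 8 measured members (x axis). Each symbol is an experiment and a black bar marks the mean of the 4, and all 8 genes lie below 0 in experiment 3 while the points of experiment 4 stay near 0 for all genes but H2-Ob (-0.24).

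Experiment accounted for 98.6% of the variance of H2-Aa over the 8 arrays and diet for 0.442%. For H2-Ab1, H2-Eb1, Cd74, Ciita and H2-DMa experiment held between 90.8% and 95.8%, and diet between 0.375% and 3.58%. H2-Ob had 45.7% from experiment and 21.2% from diet, and the dim H2-Oa 34.1% and 5.14%. The median over all genes was 56.6% for experiment and 7.94% for diet. With the variance of all genes summed, experiment held 72.5% and diet 11.7%. Experiment 1 lay below the mean of the other experiments by 1.67 for H2-Aa, 1.71 for H2-Ab1, 1.87 for H2-Eb1, 1.11 for Cd74, 1.93 for Ciita and 1.90 for H2-DMa on the log2 scale. For H2-Ob the step was -0.41. Without experiment 1, the share of experiment ran from 33.6% (H2-Ob) and 48.2% (Cd74) to 79.3% (H2-Aa), and that of diet from 4.55% (H2-Oa) and 12.2% (H2-Aa) to 29.2% (H2-Ob). The differences without experiment 1 were -0.15 for H2-Aa, -0.26 for H2-Ab1, -0.27 for H2-Eb1, -0.21 for Cd74, -0.42 for Ciita and -0.51 for H2-DMa, and none of these passed in limma with experiment as a block (adjusted p between 0.541 and 0.7001).

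Macrophage and endothelial markers also set experiment 1 apart. The mean log2 level of 11 macrophage markers in experiment 1 was 9.13 in the HFD pool and 7.88 in the LFD pool, while the other HFD pools lay at 10.48 to 10.77 and the other LFD pools at 10.37 to 10.97, and that of 16 endothelial markers was 10.21 in its HFD pool and 10.56 in its LFD pool, while the other HFD pools lay at 7.34 to 7.70 and the other LFD pools at 5.70 to 9.02. Adgre1, which encodes F4/80, was at 8.58 and 6.54 in the HFD and LFD pool of experiment 1, where H2-Ab1 was at 10.31 and 10.03. Adgre1 thus differed by 2.04 between these pools and H2-Ab1 by 0.28. In experiment 3 the endothelial mean was 7.70 in the HFD pool and 5.70 in the LFD pool, the pool with the highest class II levels. In the same experiment, of 11 macrophage markers 10 were lower in the HFD pool and 1 higher, from -0.53 (Mertk) to 0.38 (Cd68). In experiment 1, all 11 macrophage markers were higher in the HFD pool. Of 13 dendritic cell markers in experiment 3, 7 were lower in the HFD pool, 5 higher and 1 equal. These 13 ran from -2.55 (Cd209a, a lectin) to 3.04 (Itgax, which encodes CD11c). Of 6 monocyte markers 3 were lower and 3 higher there, from -1.90 (Ccr2, a chemokine receptor) to 0.32 (Vcan).

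Over the 13 dendritic cell markers the mean lay between 4.97 and 5.23 in HFD pools and between 4.58 and 5.41 in LFD pools, with 0 genes past the adjusted threshold in limma (at an unadjusted p under 0.05, Itgax higher and Siglech lower). Of these 13 markers, 4 were dim on all 8 arrays (Flt3, Clec9a, Xcr1 and Itgae). Another 6 lay above the dim limit on all 8 (Zbtb46, Batf3, Ccr7, Clec10a, Cd209a and Itgax). Of 10 B cell markers, 6 lay under it on every array, among them Ms4a1, Pax5 and Cd79a, and the mean lay between 4.45 and 4.62 in HFD pools and between 4.62 and 4.78 in LFD pools. At an unadjusted p under 0.05 without the block, Cd22 was higher and 0 B cell markers were lower, and with the block 1 was higher and 3 lower. Among all genes 3.3% were higher and 1.51% lower without the block, and 7.95% and 4.16% with it. In experiment 3, 7 of the 10 were lower in the HFD pool and 3 higher, and the 4 that lay above the dim limit on all arrays took both signs there (Bank1 -2.07, Cd79b -1.72, Cd22 0.71 and Ebf1 2.25). Ebf1 was highest in the HFD and LFD pool of experiment 1 (9.78 and 10.20) and lowest in the LFD pool of experiment 3 (5.22). The mean of the endothelial markers had the same highest and lowest pools. Cd22 was higher in the HFD pool in all 4 experiments. The part of macrophage, endothelial, dendritic cell and B cell content in the class II levels was not tested.

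**Figure D4:**
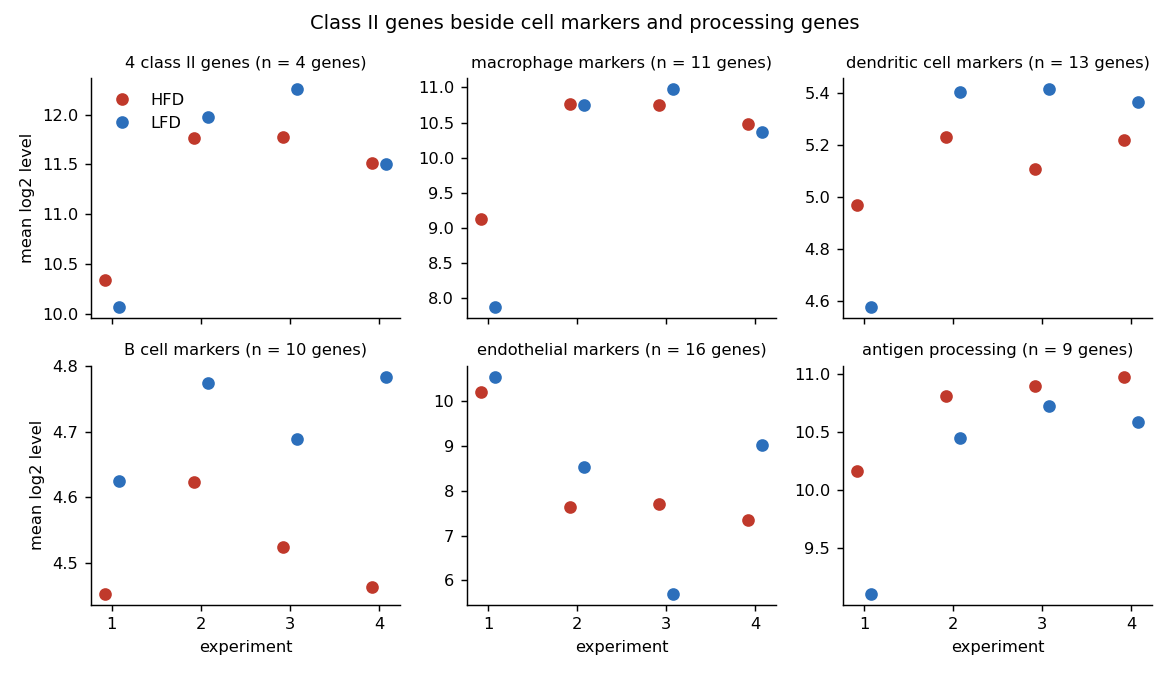
Mean log2 level (y axis, scaled separately in each panel) of H2-Aa, H2-Ab1, H2-Eb1 and Cd74, of 4 marker lists and of the antigen processing genes in each experiment (x axis), with HFD pools in red and LFD pools in blue. Class II genes and macrophage markers are lowest, and endothelial markers highest, in both pools of experiment 1.

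The genes that prepare antigen for class II molecules gave other values. Of 9 measured genes of endolysosomal processing, 6 were higher in HFD pools in all 4 experiments and 1 (Cst3) was lower in all 4, and their median difference was 0.66. Over all genes, 11% were higher and 7.43% lower in all 4. Ctsl, a cathepsin that cuts the invariant chain, had log2 levels of 10.85, 10.87, 11.08 and 11.62 in HFD pools of experiments 1, 2, 3 and 4, against 9.04, 9.55, 9.88 and 11.23 in LFD pools, and differed by 1.18 (SE 0.45). Ctsd, an aspartic protease of lysosomes, differed by 0.91 (SE 0.28) and Ctsz by 0.75 (SE 0.41). Ctss, the main protease of the invariant chain in antigen-presenting cells, differed by 0.94 on average, by 2.45 in experiment 1 and by 0.20 in experiment 3. Ifi30, the thiol reductase GILT, differed by 0.66, Lgmn, the asparaginyl endopeptidase, by 0.40, and Cst3, the inhibitor cystatin C, by -0.23. In limma 0 of the 9 passed an adjusted p under 0.05 with or without the block, while the unadjusted p was under 0.05 for Ctsd and Ctsl, both higher, and for 0 genes that were lower, joined by Ctsz when experiment was a block. Among all genes 3.3% were higher and 1.51% lower at that threshold, and 7.95% and 4.16% with the block. The mean over the 9 genes differed by 1.06, 0.36, 0.17 and 0.39 in experiments 1, 2, 3 and 4. That over 11 macrophage markers differed by 1.25, 0.026, -0.22 and 0.12, and the part of macrophage content was not tested. These proteases serve lysosomal breakdown in general as well as presentation. Whether the difference of the processing genes exceeded that of the class II chains was not tested.

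**Figure D5:**
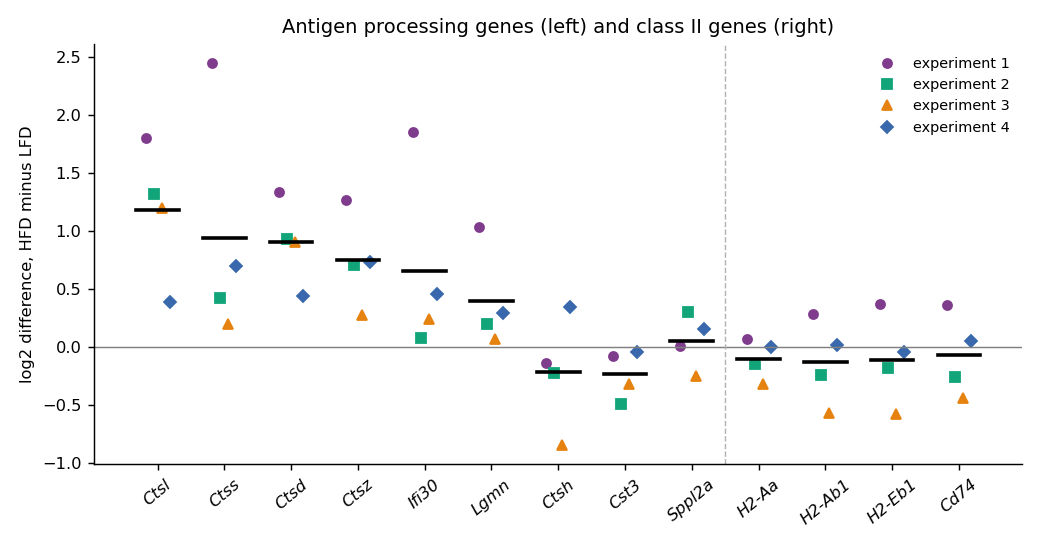
Log2 difference between HFD and LFD pools (y axis) in each of 4 experiments for 9 antigen processing genes (left of the dashed line) and for H2-Aa, H2-Ab1, H2-Eb1 and Cd74 (right). The black bar is the mean, which is 1.18 for Ctsl and 0.91 for Ctsd, against -0.13 for H2-Ab1 and -0.066 for Cd74.

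Among 14 genes of class II transcription, Prdm1, a repressor of Ciita in the B lineage, lay higher in each of the 4 HFD pools, by 0.76 on average (SE 0.30, log2). Rfx5, the X box factor, lay lower in each of them (mean difference -0.32, SE 0.13). Nfya, a subunit of NF-Y, differed by 0.29, and Spi1, the myeloid factor PU.1, by 0.72 with 2.04 in experiment 1. Irf4 differed by 0.97, -1.15, -1.26 and 0.26 in experiments 1, 2, 3 and 4. In limma 0 of the 14 passed an adjusted p under 0.05, and at an unadjusted p under 0.05 1 was higher (Prdm1) and 1 lower (Rfx5). Among all genes 3.3% were higher and 1.51% lower at that unadjusted threshold. On the route by which interferon gamma induces Ciita, 0 of 9 genes passed in either direction at an adjusted p under 0.05, or at an unadjusted p under 0.05. Ifngr2 and Ifngr1, the chains of its receptor, differed by 0.45 (SE 0.25) and -0.21 (SE 0.13), and each had an unadjusted p under 0.05 once experiment was a block. They were the only 2 of the 9 genes to do so, 1 higher and 1 lower. For comparison, the blocked fit placed 7.95% of all genes higher and 4.16% lower by the same threshold. Irf1 differed by -0.046. Ifng itself was dim on all 8 arrays.

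Among 8 genes of class II turnover, Cd83, which protects class II molecules from ubiquitination, lay higher in the HFD pool of each experiment. Its mean difference was 0.82 (SE 0.70, or 0.21 with experiment as a block). Marchf1, the ligase that ubiquitinates class II molecules, differed by 0.21, -0.28, -0.85 and 0.22 in experiments 1, 2, 3 and 4. Il10, a cytokine that lowers surface class II, differed by 1.24 (SE 0.80). In limma 0 of the 8 had an adjusted or an unadjusted p under 0.05. The block brought the unadjusted p of Cd83 and Il10, both higher, under 0.05, and that of 0 genes that were lower. With the block, 7.95% of all genes were higher and 4.16% lower at that threshold. Of 6 costimulatory ligands, Icosl, the ligand of ICOS, differed by -0.91 (SE 0.13, unadjusted p = 0.000167 and adjusted p = 0.982 in limma). Cd80 differed by -0.23 (SE 0.71, or 0.28 with the block) and Cd86 by -0.12 (SE 0.91, or 0.31 with the block). In experiment 3 Cd80 and Cd86 differed by -1.31 and -1.26. The block added Pdcd1lg2, dim on all arrays, to Icosl as lower at an unadjusted p under 0.05. Of 12 class I presentation genes measured for comparison, 6 were lower in HFD pools in all 4 experiments and 1 (Calr) was higher in all 4, and their median was -0.20. Over all genes, 7.43% were lower and 11% higher in all 4. H2-K1 differed by -0.34, -0.23, -0.42 and -0.19 in experiments 1, 2, 3 and 4. In limma 0 of the class I genes passed an adjusted p under 0.05, and at an unadjusted p under 0.05 1 was higher (Calr) and 1 lower (Psmb8). When experiment was a block, the unadjusted p was under 0.05 for 1 higher gene (Calr) and 4 lower genes (H2-K1, Psmb8, Psmb9 and Tap2). The shares of all genes were 7.95% higher and 4.16% lower with the block, and 3.3% and 1.51% without it.

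The members resembled each other over the arrays to different degrees. Likeness was measured as the root mean square difference of gene-centred log2 levels from the mean of H2-Aa, H2-Ab1, H2-Eb1 and Cd74 over the 8 arrays, a mean that these 4 genes form themselves. It was 0.0676 for H2-Ab1, 0.0825 for H2-Aa, 0.151 for H2-Eb1 and 0.223 for Cd74. Of the members that did not form the mean, Ciita lay at 0.272, H2-DMa at 0.313, H2-Ob at 0.566 and H2-Oa at 0.773. Of 10616 other genes at or over the dim limit on 4 or more arrays, the nearest were Rassf5 (0.0682), Arhgdib (0.0853), Ttc7 (0.0915), Scamp2 (0.0918) and Rab3il1 (0.0997). Set among these other genes by distance, Ciita ranked 166, H2-DMa 265, H2-Ob 1682 and H2-Oa 6213. Of the 4 genes that form the mean, H2-Ab1 ranked 1, H2-Aa 2, H2-Eb1 22 and Cd74 96. On the differences within the 4 experiments alone the nearest were Rassf5 (0.0220), Fam118b (0.0353), Rnf170 (0.0449), Kdm4a (0.0453) and Entpd6 (0.0559). Rassf5 had log2 levels of 4.93, 6.19, 6.17 and 5.95 in HFD pools, against 4.64, 6.43, 6.65 and 5.95 in LFD pools. These distances are descriptions over arrays that share the same low experiment 1.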

How the data were processed

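RNA of ATM pools was hybridised to Affymetrix whole-transcript mouse arrays. The authors deposited log2 values, which the processing notes of the submitters name as made with RMA (background correction, quantile normalisation and summary of probes). No version was given. Array medians lay between 4.25 and 4.39, and the number of arrays limits the precision. Gene names came from the array annotation. Of 35556 features, 21218 carried 1 symbol, 1881 several and 12457 none. Each of the 18820 genes was represented by its brightest probe set, and 18790 were matched to RefSeq genes by Entrez ID.

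HFD arrays were compared with LFD arrays over all genes by limma (lmFit followed by eBayes, version 3.58.1 under R 4.3.3), with two-sided tests, Benjamini-Hochberg adjustment and a threshold of 0.05. The fits were tested on simulated data. Experiment numbers from the labels pair the pools, so a fit with experiment as a block is given where it bears on a result. Deviations of paired pools from the mean of their diet had correlations across genes of 0.889, 0.357, 0.652 and 0.186 in experiments 1, 2, 3 and 4. They were thus alike mainly in experiments 1 and 3. Apart from the interaction, an SE came from the fit without the block unless the block is named, and it includes spread between experiments. Members, lists and tests were chosen with earlier results of these data known, and lists were described by counts and medians. Named genes were all members, up to 4 genes with the smallest p in each list described with well-known others, the 5 nearest genes by each likeness and Adgre1. Irf4, Marchf1 and the markers named at the ends of a range or by their sign were chosen after their values were seen. So were the single members of lists named as dim or as above the dim limit.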

Additional observations from a re-analysis of the deposited data

Results flagged for a closer look

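The Cd74 level in the HFD pool of experiment 1 (11.18) lay far from the other 3 HFD pools (11.93 to 12.06), with a gap to the nearest of 0.852 of the whole range, past the 95% critical value of Dixon's test. It was the only gap past that value in the 16 groups of 4 pools examined, and chance flags about 1 in 20 groups. A low HFD pool of experiment 1 was not particular to Cd74. That pool lay at 10.21 for H2-Aa, against 11.60 to 11.92 in the other HFD pools, and at 10.31 for H2-Ab1, against 11.57 to 11.89.

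H2-Oa was lower in the HFD pools of both experiments with 45% fat (-0.56 and -0.12) and higher in both with 60% fat (0.28 and 0.04), a difference of 0.50 (SE 0.23) that did not pass the interaction test (limma with experiment as a block, adjusted p = 0.951). All 8 values lay under the dim limit.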

How the results depend on the processing

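No member passed in limma under any setting tried. Of 174 values of members under other settings, 155 kept their sign and 19 changed it. Many of these values could not change, because the groups were balanced and each member had 1 probe set. The difference was identical with the block, the t-test, the trend and robust option, removal of dim probe sets and the mean of all probe sets. The count is therefore no measure of robustness. Leaving out each array in turn gave -0.54 to 0.29 for H2-Aa, -0.62 to 0.23 for H2-Ab1, -0.66 to 0.28 for H2-Eb1, -0.91 to 0.091 for H2-DMa, -0.41 to 0.14 for Cd74, -0.87 to 0.097 for Ciita and -0.58 to 0.12 for the median over members, and the lowest value of each came without the LFD pool of experiment 1. The highest came without the HFD pool of experiment 1, for H2-DMa without the LFD pool of experiment 3. These fits had no block, so leaving out 1 pool kept the other pool of its experiment without its pair. With both pools of experiment 1 or both of experiment 4 left out, these 6 genes kept a negative difference (H2-Ab1 -0.26 and -0.18). Experiments 2 and 3 were not left out as pairs. H2-Ob (-0.52 to -0.098) and H2-Oa (-0.21 to -0.0089) stayed negative whichever single array was left out. H2-Oa turned to 0.068 without experiment 1, with or without the block, and to 0.16 in the 60% experiments alone. Genes called numbered 0, and 0 with experiment as a replicate block, whether the block was a fixed or a random term. After the data were seen, the block was also combined with removal of dim probe sets, which gave 25 called genes, and 1 gene of the pathway and marker lists (Itgax) and no member was among them. Members of 1 sign in all 4 experiments numbered 0, but 1 (H2-Ob) with arrays centred on their medians and 2 (H2-Ob and Ciita) after a repeat of quantile normalisation. The methods' t-test called 810 genes without adjustment and 0 after Benjamini-Hochberg adjustment. The block changed no other call, and the interaction of diet and fat content gave 0 calls with and without it.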
